A study of Mus musculus with 23 samples.

Results

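The comparison covers 6 of the 23 samples of the study: 3 whole EO771 tumors and 3 whole MC38 tumors, taken from a set of 15 tumors of 5 syngeneic mouse models. EO771 is the EO771.LMB mammary carcinoma line and MC38 is a colon carcinoma line. Both lines derive from C57BL/6 mice. Both tumors grew after injection of 500000 cells into the right flank or both flanks of female adult C57BL/6 mice with an intact immune system. Host strain, sex and site of growth were thus shared. The labels and methods used here give no transgene for these mice and no treatment other than the engrafted tumor. Each model rests on 1 cancer cell line, and no tumor of a second mammary or colon line is part of the comparison. RNA was isolated from a fragment of each tumor at the endpoint, enriched for poly(A) and sequenced from unstranded libraries. The 6 tumors were identified by their labels. The pair of models was chosen with earlier results of these data known, which gave similar stromal scores and different lymphoid and cytotoxic levels. Lymphoid, cytotoxic and stromal results below therefore describe the chosen pair and are no independent support for such a difference. Every gene symbol was followed through 1 transcript, the one with the largest mean count. It is not stated whether the 3 tumors of a model came from separate mice, cultures or injection days. The p-values therefore measure the spread between these samples.

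A fragment of a tumor holds cancer cells, fibroblasts, vessels and infiltrating leukocytes, and its RNA is the sum over all of them. Cytotoxic lymphocytes kill through perforin and granzymes and secrete interferon-gamma. This cytokine acts on most surrounding cells and induces MHC class I presentation, immunity-related GTPases, the chemokines Cxcl9 and Cxcl10, and the checkpoint ligand PD-L1, which is encoded by Cd274. Type I interferons act through a receptor of their own, with Stat2 and Irf9, on an overlapping set of antiviral genes.

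Total counts lay between 11497986 and 19125779 per tumor. Of 24940 symbols in the table, 14546 had enough counts for testing with the quasi-likelihood test of edgeR. Differences are given as log2 fold changes of EO771 over MC38, a positive value being higher in EO771, and levels as CPM (counts per 1000000 counts) after TMM scaling of library sizes. In all 9012 genes (62%) had an adjusted p under 0.05. A gene is called at an adjusted p under 0.05 with a log2 fold change of at least 1 in size. By this rule 1652 genes (11.4% of those tested) were higher in EO771 tumors and 2188 genes (15%) were higher in MC38 tumors. Without regard to the test, 34% of genes were higher in every EO771 tumor than in every MC38 tumor and 35.1% the reverse. The median log2 fold change of all tested genes was -0.03. These shares are the background for the counts of list members between EO771 and MC38.

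The MC38 libraries differed among themselves, and one stood apart in the genes of the cancer cells. MC38 tumor 1 held low levels of genes that define EO771 tumors. Searching for genes above 50 CPM in each EO771 tumor and under 1% of the EO771 mean in MC38 tumors 2 and 3 gave 13 genes, among them Krt8, Wnt7b, Esx1, Bmp7, Pthlh and Hand1, named after their values were seen. In MC38 tumor 1 these 13 genes lay between 4.53% and 5.83% of their EO771 mean, with a median of 5.02%. In MC38 tumors 2 and 3, which the search itself held under 1%, they lay between 0.17% and 0.956%. Genes defining MC38 tumors, only 6 or 7 per EO771 library, lay at medians of 0.183% to 0.237% of the MC38 mean in the 3 EO771 tumors. The highest single value was 1.7%, in EO771 tumor 3. In MC38 tumor 1 the genes defining B16 tumors had a median of 0.0753% (37 genes) and those defining Pan02 tumors 0.241% (11 genes). The origin of these levels was not tested. Where leaving out MC38 tumor 1 or another library ended a call or moved a called value by over 1.5 times, the value without it is given. Without it, 1771 genes (12.2%) were higher in EO771 and 2140 (14.7%) in MC38.

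**Figure D1:**
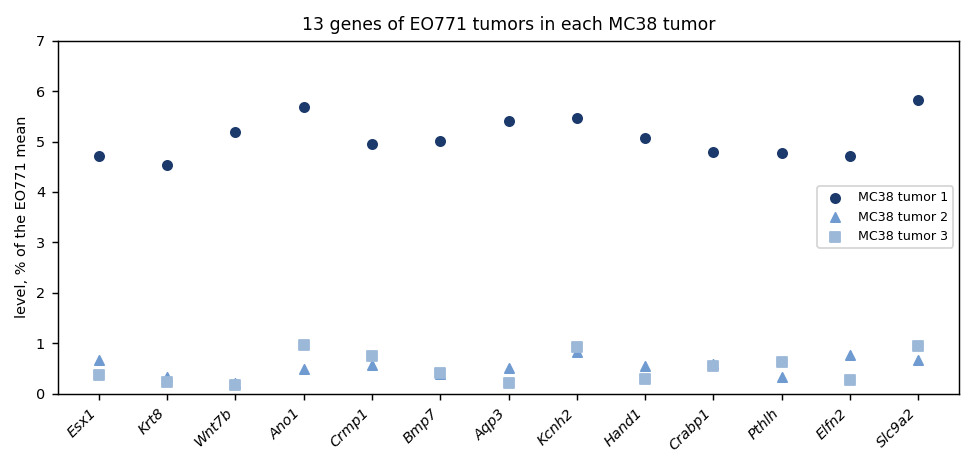
Level of the 13 genes in each MC38 tumor as a percentage of the mean CPM of the 3 EO771 tumors (y axis), by gene in order of EO771 level (x axis). All 13 genes sit between 4.53% and 5.83% in MC38 tumor 1 and, as the search required, under 1% in MC38 tumors 2 and 3.

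The second departure concerned genes of muscle and blood. Genes of skeletal muscle, a tissue that lies under the skin of the flank, summed to 12.2 to 15.6 CPM in EO771 tumors and to 1314, 482 and 4127 CPM in MC38 tumors 1, 2 and 3. All 12 muscle genes were called higher in MC38, with a median log2 fold change of -8.43, or -7.53 without MC38 tumor 3. Genes of red blood cells summed to 18.9 to 30.2 CPM in EO771 and to 275, 66.7 and 353 CPM in MC38. Of 6 tested members of this list 5 were called higher in MC38 and 1 higher in EO771. MC38 tumor 2 was the lowest of the MC38 tumors in both lists and in fibrillar collagen and macrophage genes, as the plot of summed levels shows. Of other tissues, 2 of 7 tested adipocyte genes were called higher in MC38, or 1 without EO771 tumor 2, EO771 tumor 3 or MC38 tumor 3. No mast cell gene of 6 tested was called, or 2 higher in MC38 without MC38 tumor 1, and 1 of 10 housekeeping genes was called, or 0 without EO771 tumor 2 or MC38 tumor 1. The origin of the muscle and red blood cell transcripts was not tested, nor was the part of muscle, blood and stroma content in the differences between the models.

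**Figure D2:**
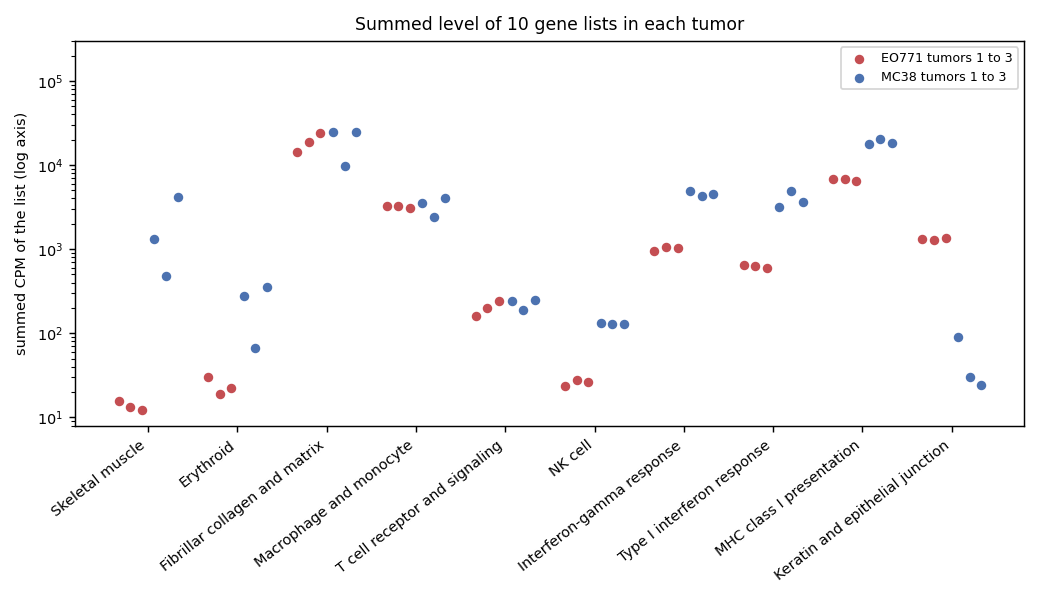
Summed CPM of 10 gene lists (log y axis) in each of the 3 EO771 tumors (red) and 3 MC38 tumors (blue). Interferon, MHC class I, NK cell, muscle, erythroid and keratin lists do not overlap between the models, while collagen, macrophage and T cell lists overlap, with MC38 tumor 2 the lowest MC38 point in each of these.

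Itgax and Cd274 differed in opposite directions. Itgax (chr7:128129568-128150657, mm10) encodes CD11c, the integrin subunit used to identify dendritic cells and also found on macrophages. Its level was 91.5, 116 and 92.9 CPM in EO771 tumors 1 to 3 and 33.7, 42.6 and 48 CPM in MC38 tumors 1 to 3. Every EO771 tumor lay above every MC38 tumor, and the log2 fold change was 1.27 ± 0.15 (SE, n = 3 per model, adjusted p = 0.00024). Cd274 (chr19:29367438-29388094, mm10) stood at 19.6, 19.1 and 17.5 CPM in EO771 and at 100.1, 54.7 and 86 CPM in MC38. The groups did not overlap, although MC38 tumor 2 was under the other two, and the log2 fold change was -2.1 ± 0.22 (adjusted p = 0.00012). Of its exon bases 14.1% are shared with another gene. In the 9 tumors of the other 3 models Itgax ranged from 9.78 to 125 CPM and Cd274 from 13.4 to 73.3 CPM, on a scaling over all 15 tumors.

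Other dendritic cell genes did not follow Itgax as a group. The list holds Itgax itself, which is among the 4 of 22 tested members called higher in EO771. A further 4 were called higher in MC38. The median log2 fold change, Itgax included, was -0.17, with a range of -0.30 to -0.10 on leaving out each tumor in turn. Xcr1 and Clec9a, receptors that mark conventional dendritic cells of type 1, went against Itgax. Xcr1 was at 0.33, 0.525 and 0.45 CPM in EO771 and 1.72, 1.68 and 4.48 CPM in MC38, and Clec9a was at 0.55, 0.876 and 0.27 CPM and 3.54, 2.19 and 2.6 CPM. Both were called higher in MC38 (log2 fold changes -2.58 ± 0.52 and -2.28 ± 0.4, adjusted p = 0.0035 and 0.0018). Flt3 and Zbtb46, a receptor and a transcription factor of the same lineage, did not pass the test (log2 fold changes -0.12 and -0.18). Batf3, Irf8, Itgae, Cadm1, Naaa and Wdfy4, list members also linked to type 1 cells, were not called in either direction. The type 1 calls thus rest on Xcr1 and Clec9a, which were at most 4.48 CPM in any tumor. Mgl2, a lectin of one type 2 dendritic cell and macrophage subset, was at 33.4, 26.3 and 47.1 CPM in EO771 and 7.78, 1.73 and 2.74 CPM in MC38, a log2 fold change of 3.1 ± 0.51. The co-stimulatory receptor Cd40 was higher in EO771 by 1.39 ± 0.09, and Ccl22, a chemokine of mature dendritic cells, by 1.42 ± 0.43, although its groups overlapped. Bst2 (log2 fold change -2.03) and Irf4 (-1.35) were higher in MC38, and Bst2 is also induced by interferon in many cell types. Single libraries decided some of these values. Without MC38 tumor 3 the log2 fold change of Xcr1 was -1.99. Without MC38 tumor 1 that of Mgl2 was 4.02, and Irf4 was no longer called (-0.98). Ccl22 was not called without EO771 tumor 1 (1.23), EO771 tumor 3 (1.27) or MC38 tumor 3 (1.22).

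**Figure D3:**
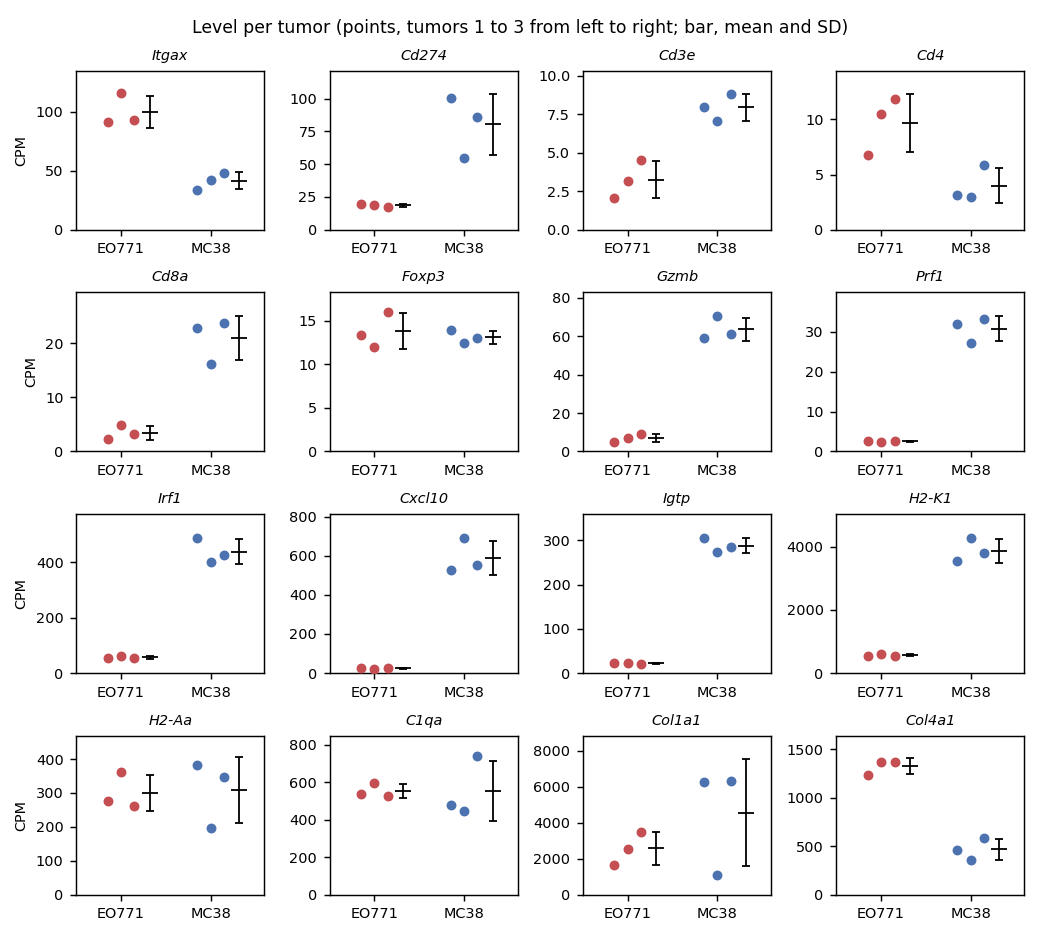
Level in CPM (y axes from 0) of 16 genes in the 3 EO771 and 3 MC38 tumors, one point per tumor with the mean and SD beside them. Itgax, Cd4 and Col4a1 lie higher in every EO771 tumor, Cd274, Cd3e, Cd8a, Gzmb, Prf1, Irf1, Cxcl10, Igtp and H2-K1 higher in every MC38 tumor, and Foxp3, H2-Aa, C1qa and Col1a1 overlap.

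The models differed in lymphocyte genes, and the differences were not the same for all lymphocyte types. In RNA of whole tumors, fewer cells of a type and less RNA per cell cannot be told apart. Of 18 tested genes of the T cell receptor and its signaling, 10 were called higher in MC38 and none in EO771, with a median log2 fold change of -1.17. Cd3e, a chain of the T cell receptor complex, was at 2.09, 3.15 and 4.5 CPM in EO771 and 7.98, 7.04 and 8.81 CPM in MC38. The highest EO771 tumor stayed below the lowest MC38 tumor, and the log2 fold change was -1.31 ± 0.29 (adjusted p = 0.0051). The other chains Cd3g and Cd3d were lower in EO771 by similar amounts (-1.44 ± 0.24 and -1.68 ± 0.31), as was the T cell kinase Zap70 (-1.4 ± 0.21). Thy1, which fibroblasts also express, and Tcf7 gave most of the summed EO771 level of this list and, like Cd247, were not called (log2 fold changes 0.36, 0.01 and 0.33), and 60.3% of the exon bases of Cd247 are shared with another gene. The summed level overlapped between the models, at 160 to 243 CPM in EO771 and 187 to 248 CPM in MC38. The count of 10 depended on the libraries in the fit: with all 15 tumors in one fit, which share one estimate of the spread, 1 member of the list was called higher in MC38. In that fit Cd3d, Cd3e, Cd3g and Zap70 were not called, with a log2 fold change of -1.29 for Cd3e.

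The CD8 T cell genes differed by more. Cd8a, the chain that defines CD8 T cells, was at 2.25, 4.82 and 3.15 CPM in EO771 and 22.8, 16.2 and 23.7 CPM in MC38 (log2 fold change -2.64 ± 0.29, adjusted p = 0.00017). Every MC38 tumor lay above every EO771 tumor, and Cd8b1 followed with -1.58 ± 0.41, a call lost with all 15 tumors in one fit (-1.55). Tbx21, the transcription factor T-bet of type 1 immunity, differed by -1.98 ± 0.25, and Eomes, a related factor of CD8 T and NK cells, by -5.38 ± 0.31, from 0.44, 0.876 and 0.45 CPM in EO771 to 18, 28.1 and 26.3 CPM in MC38. In all, 4 of 5 tested CD8 T cell genes were called higher in MC38. Klrg1, a marker of effector cells, was not called and overlapped (-0.65 ± 0.41).

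CD4 T cell genes were split. Cd4 was at 6.76, 10.5 and 11.8 CPM in EO771 and 3.13, 3.01 and 5.85 CPM in MC38, with no overlap (log2 fold change 1.28 ± 0.33, adjusted p = 0.011). With all 15 tumors in one fit Cd4 was not called (1.3). Cd4 RNA is also found in some macrophages and dendritic cells. Foxp3, the factor that defines regulatory T cells, was at 13.4, 12 and 16 CPM in EO771 and 13.9, 12.4 and 13 CPM in MC38, and the groups overlapped (log2 fold change 0.07 ± 0.14, adjusted p = 0.68). Of the exon bases of Foxp3, 31.5% are shared with another gene, and the libraries keep no strand. Il2ra and Ctla4, which regulatory T cells express, were likewise not called (0.05 ± 0.26 and -0.07 ± 0.46). Ikzf2 and Gata3, transcription factors of regulatory and type 2 cells that other tissues also express, were higher in MC38 (-1.96 ± 0.31 and -1.97 ± 0.22). Tnfrsf9, the co-stimulatory receptor 4-1BB, was at 145, 129.6 and 157 CPM in EO771 and 59, 31.4 and 41.8 CPM in MC38 (log2 fold change 1.71 ± 0.21, adjusted p = 0.00032). Tnfrsf9 lay above Cd4 and Foxp3 in every tumor and gave most of the summed EO771 level of this list (178 to 227 CPM). Which cells expressed Tnfrsf9 was not tested. Its ligand Tnfsf9 showed the reverse, at 1.98, 3.33 and 3.24 CPM in EO771 and 33.2, 38.8 and 34.6 CPM in MC38 (-3.67 ± 0.2). In all, 3 of 12 tested CD4 and regulatory T cell genes were called higher in EO771 and 2 higher in MC38, the latter becoming 4 without EO771 tumor 3.

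NK cell genes were mostly higher in MC38. Of 12 tested members 10 were called, none of them higher in EO771, and the median log2 fold change was -2.0. The summed level of the list was 23.5 to 27.8 CPM in EO771 and 129 to 134 CPM in MC38. Klrk1, the activating receptor NKG2D, was at 2.69, 2.71 and 3.06 CPM in EO771 and 11.2, 9.07 and 10.6 CPM in MC38 (-1.87 ± 0.17). Il2rb, a receptor chain for interleukins 2 and 15, differed by -1.27 ± 0.13 and was not called with all 15 tumors in one fit (-1.25), and Klra4, an activating receptor of the Ly49 family, by -4.33 ± 0.16. The Klra genes are near-identical copies of each other, so reads may be split among them. Styk1, a kinase found in NK cells, was at 0.385, 0.35 and 0.45 CPM in EO771 and 31.1, 29.5 and 30.05 CPM in MC38, a log2 fold change of -6.24 ± 0.16. In every MC38 tumor Styk1 lay above Klrk1 and Ncr1, and which cells expressed it was not tested. Ncr1, the receptor NKp46 that defines NK cells, stayed low at 0.495, 1.05 and 0.54 CPM and 1.01, 2.35 and 1.16 CPM, and its groups overlapped (-1.15 ± 0.47, adjusted p = 0.065). Ncr1 was called without MC38 tumor 1 (-1.37) and without EO771 tumor 2 (-1.53), and without MC38 tumor 1 the count became 12 of 12.

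Cytotoxic effector genes showed the widest gap among the lymphoid lists, with 14 of 15 tested members called higher in MC38 and a median log2 fold change of -3.18. The pair was chosen with different cytotoxic levels known, so the choice itself favored such a gap. Prf1, which encodes perforin, was at 2.53, 2.36 and 2.7 CPM in EO771 and 31.8, 27.3 and 33.2 CPM in MC38. The 3 values within each model were close together, and the log2 fold change was -3.6 ± 0.14 (adjusted p = 2.9e-06). Gzmb, the granzyme of cytotoxic T and NK cells, was at 5.11, 7.01 and 9.09 CPM in EO771 and 59, 70.4 and 61.4 CPM in MC38 (-3.19 ± 0.2, adjusted p = 1.4e-05). The death ligand Tnfsf10 (TRAIL) differed by -2.58 ± 0.15, and Gzmf, with 16.4% of its exon bases overlapped by another gene, by -6.32 ± 0.3. Gzmg had no count in any EO771 tumor and 24.1, 11.2 and 27.7 CPM in MC38, at least 285-fold higher against a floor of 3 counts over the 3 EO771 tumors. The list median was the same with Gzmg at this bound. Granzymes c to g are neighboring copies whose reads may be shared. Ifng itself was scarce, at 0.275, 0.0876 and 0.45 CPM in EO771 and 3.13, 3.01 and 4.05 CPM in MC38 (-3.61 ± 0.42, adjusted p = 0.00022), and 25.9% of its exon bases are shared with another gene. Lamp1, a lysosomal protein of every cell type, was the one tested member not called. In the other 3 models Prf1 ranged from 3.6 to 23.2 CPM and Gzmb from 2.1 to 44.6 CPM, so that EO771 lay under all of these tumors for Prf1 and MC38 above all of them for both genes.

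B cells and all leukocytes differed less. Of 8 tested B cell genes 1 was called higher in EO771 (Blk, a B cell kinase) and 2 higher in MC38 (the B cell factors Pax5 and Pou2af1), each at most 2.85 CPM in any tumor. The EO771 count became 2 without EO771 tumor 3 or without MC38 tumor 1. Cd79a, a chain of the B cell receptor, was at 8.91, 5.17 and 5.85 CPM in EO771 and 5.05, 7.14 and 6.72 CPM in MC38 and was not called. Ptprc, which encodes the leukocyte marker CD45, was at 62.2, 77.8 and 78.9 CPM in EO771 and 105, 85 and 128 CPM in MC38, a log2 fold change of -0.54 ± 0.16 that is under the fold threshold. Of 12 pan-leukocyte genes 1 was called, Cyth4, an exchange factor of hematopoietic cells, which was higher in EO771 (1.29 ± 0.15).

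**Figure D4:**
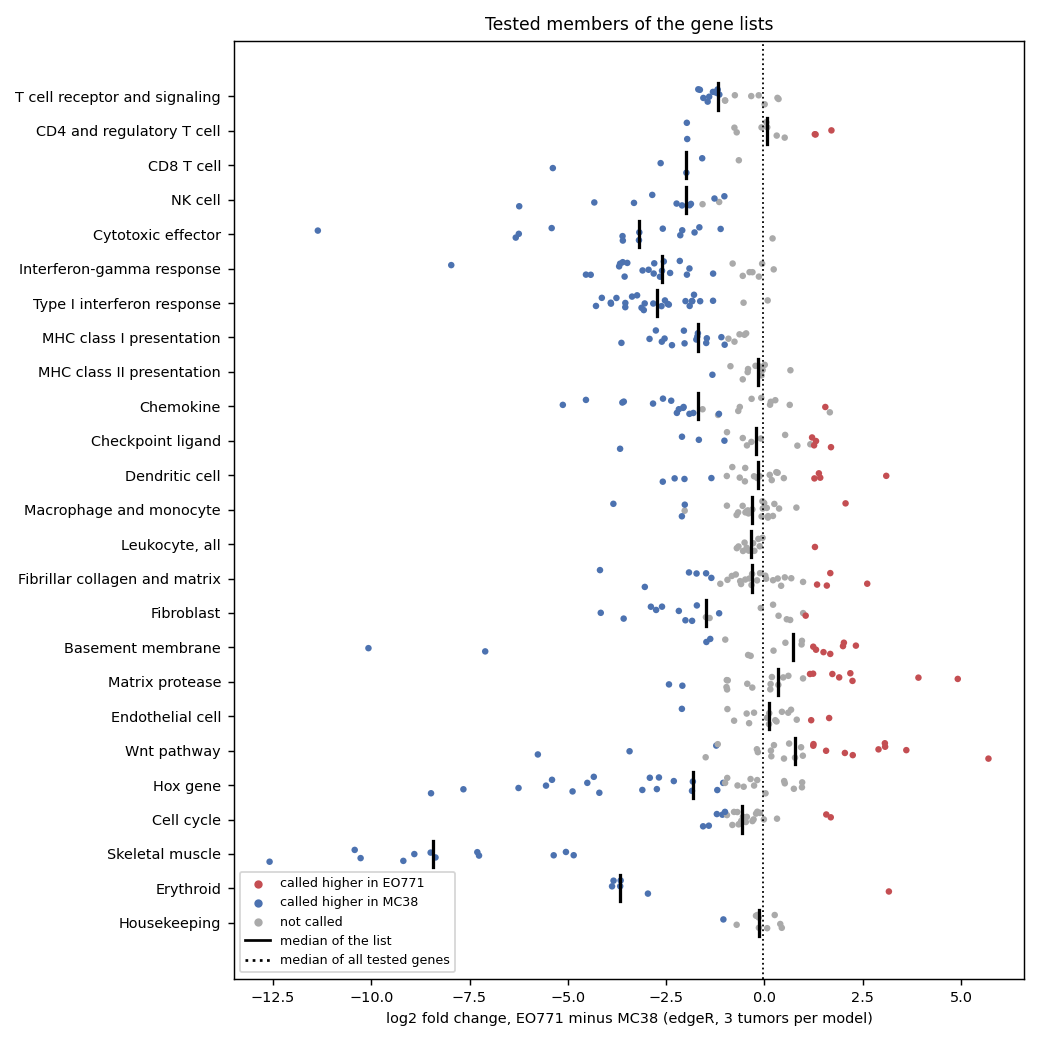
Log2 fold change of EO771 over MC38 (x axis) for each tested member of 25 gene lists (y axis), colored by call, with the list median (bar) and the median of all tested genes (dotted line). Type I interferon, interferon-gamma, cytotoxic, NK cell, MHC class I and Hox lists lie to the MC38 side, with medians between -3.18 and -1.70, while macrophage, dendritic cell, collagen and MHC class II medians lie between -0.32 and -0.16 with all 6 tumors.

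The interferon response differed across most of its genes. Of 27 tested interferon-gamma response genes 20 were called higher in MC38 and none in EO771, with a median log2 fold change of -2.60. Of 26 type I interferon response genes 24 were called higher in MC38 and none in EO771, with a median of -2.72. Short stretches of promoters are shown here because many of these genes carry the 2 sequence motifs through which interferons are known to act. The first is the gamma-activated sequence, searched as TTCNNNGAA. The second is the core of the interferon-stimulated response element, searched as GAAANNGAA. Both were searched on both strands in the 250 bases upstream of each start in the RefSeq annotation of GRCm38.p6, and matches are in capitals, also where they overlap one another.
Irf1 (chr11:53769909-53769947, +): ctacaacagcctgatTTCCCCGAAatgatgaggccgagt
Igtp (chr11:58199496-58199545, +): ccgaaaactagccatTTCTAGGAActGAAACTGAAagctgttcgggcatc
Irgm2 (chr11:58214887-58214936, +): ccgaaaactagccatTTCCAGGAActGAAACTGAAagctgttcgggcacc
Tgtp1 (chr11:48992300-48992349, -): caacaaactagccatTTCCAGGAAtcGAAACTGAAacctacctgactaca
Tgtp2 (chr11:49064259-49064308, -): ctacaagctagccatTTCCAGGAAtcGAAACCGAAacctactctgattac
Cxcl10 (chr5:92349079-92349117, -): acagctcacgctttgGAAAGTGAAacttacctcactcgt
Isg15 (chr4:156200861-156200911, -): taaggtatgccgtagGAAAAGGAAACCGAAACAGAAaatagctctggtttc
Ifit1 (chr19:34640765-34640828, +): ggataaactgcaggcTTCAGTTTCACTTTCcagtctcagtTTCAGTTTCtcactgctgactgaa

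The motif of Irf1 starts 90 bases upstream of the start site. In Igtp, Irgm2, Tgtp1 and Tgtp2 a gamma-activated sequence is followed at a spacing of 11 bases from start to start by a response element core, starting 45, 75, 88 and 81 bases upstream. This arrangement was present in 8 of 32851 promoters (0.0244%), and these 4 genes were 4 of the 8. The spacing was taken from these 4 promoters, so their place among the 8 was fixed in advance. Their stretches also resemble each other, those of Igtp and Irgm2 being nearly identical, so they do not count as separate cases. In Isg15 and Ifit1 several response element cores lie close together, and in Ifit1 they read on the opposite strand. Of the 20 called interferon-gamma response genes 12 had a promoter in the table, and all 12 held at least 1 of the motifs, 7 the gamma-activated sequence and 11 the response element core. Among all promoters 7.02% held the first, 7.13% the second and 13.4% either. Of 24 called type I genes 17 were in the table and 9 held either motif, 2 the gamma-activated sequence and 8 the response element core. Of 15 called MHC class I presentation genes 4 held either motif, and of 6 uncalled interferon-gamma response genes 2 did. These matches describe the sequence and not binding in these tumors.

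Transcription factors of the response were among the called genes. Irf1, a transcription factor of the interferon response, was at 54.2, 62.3 and 54.5 CPM in EO771 and 489, 400.2 and 427 CPM in MC38 (-2.95 ± 0.1). Stat2 and Irf9, which act downstream of type I interferon, differed by -2.83 ± 0.1 and -1.79 ± 0.09. The receptor and kinase genes themselves were not called. Ifngr1, Ifngr2, Jak1 and Jak2 had log2 fold changes of -0.3, -0.06, 0.24 and -0.38, and Ifnar1 and Ifnar2 of 0.08 and -0.53.

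Among the targets of interferon-gamma, the immunity-related GTPases Igtp, Irgm2 and Irgm1 were called higher in MC38. Igtp was at 22.8, 23 and 20.9 CPM in EO771 and 305, 274 and 285 CPM in MC38 (-3.69 ± 0.08), Irgm2 at 13, 15.5 and 15.3 CPM and 181, 184 and 190.2 CPM (-3.67 ± 0.09), and Irgm1 at 43.7, 44.8 and 41.2 CPM and 322, 289 and 293 CPM (-2.8 ± 0.08). The adjusted p of each of the 3 was 1.3e-06. Within each model the 3 tumors stayed close, including MC38 tumor 2, which was low in collagen genes. Tgtp1 and Tgtp2, near-identical copies chosen for the promoters above after their values were seen, differed by -4.42 ± 0.24 and -3.6 ± 0.23. Gbp3, a guanylate-binding protein, differed by -3.56 ± 0.09. Socs1, which inhibits the pathway, did not reach the fold threshold (69.2, 66.4 and 72 CPM in EO771, 108, 126 and 129 CPM in MC38, -0.81 ± 0.08). Ciita and Icam1, which other signals also control, were not called and overlapped (-0.55 ± 0.32 and -0.14 ± 0.18).

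In summed level, though not in every gene, the type I targets gave a different order among the MC38 tumors. Isg15, a ubiquitin-like modifier, was at 27.2, 23.6 and 21.3 CPM in EO771 and 155, 328 and 201 CPM in MC38, with MC38 tumor 2 the highest (-3.24 ± 0.28, adjusted p = 5.6e-05). Zbp1, a sensor of nucleic acids, was at 22.2, 25.8 and 23.6 CPM and 255, 322 and 253 CPM (-3.54 ± 0.12), and Rtp4 differed by -2.53 ± 0.1. The antiviral genes Oas2 and Ifit1 differed by -4.13 ± 0.24 and -2.62 ± 0.21. The summed level of the type I list was 602 to 641 CPM in EO771 and 3163, 4881 and 3616 CPM in MC38 tumors 1, 2 and 3. The interferon-gamma list summed to 960 to 1048 CPM in EO771 and to 4845, 4277 and 4523 CPM, so that MC38 tumor 2 was the highest MC38 tumor in one sum and the lowest in the other. Single members did not all follow these sums, and Cxcl10, of the interferon-gamma list, was highest in MC38 tumor 2. For 18 of the 26 type I genes every MC38 tumor lay above all 9 tumors of the other 3 models, and the same held for 7 of the 27 interferon-gamma genes, against 11.4% of all tested genes. Igtp reached 446 CPM in the other models, above the MC38 tumors, while Isg15 reached 62.3 CPM.

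Antigen presentation split by class. All 20 MHC class I presentation genes were higher in every MC38 tumor than in every EO771 tumor (of all tested genes 35.1% were), and 15 were called, with a median log2 fold change of -1.70. H2-K1, a classical class I heavy chain, was at 557, 618 and 544 CPM in EO771 and 3543, 4292 and 3808 CPM in MC38 (-2.76 ± 0.11, adjusted p = 3.2e-06). H2-D1 differed less (-1.46 ± 0.11), and their common light chain B2m was at 1021, 984 and 877 CPM and 1781, 2068 and 1956 CPM (-1.01 ± 0.1), just past the fold threshold and short of it without EO771 tumor 3 (-0.94) or MC38 tumor 2 (-0.94). Psmb10, a subunit of the immunoproteasome that interferon-gamma induces, was at 50.9, 47.8 and 41.5 CPM in EO771 and 559, 639 and 547 CPM in MC38 (-3.64 ± 0.11), and the peptide transporter Tap1 differed by -2.54 ± 0.09. H2-Q4 (-2.92 ± 0.1) belongs to a family of close copies and overlaps another gene over 19.1% of its exon bases. Of the class II list 1 of 12 tested genes was called, H2-Oa, which was at most 3.77 CPM in any tumor, and the median was -0.16, with a range of -0.29 to -0.08 on leaving out each tumor in turn. H2-Aa was at 278, 361 and 261 CPM in EO771 and 383, 198 and 346 CPM in MC38, where MC38 tumor 2 was the lowest of the 6 tumors (log2 fold change -0.04 ± 0.24, adjusted p = 0.89). In Cd74, the invariant chain, MC38 tumor 2 was the lowest as well (-0.1 ± 0.24).

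Chemokine genes were mostly higher in MC38, with 14 of 26 tested called in that direction, 1 in the other, and a median log2 fold change of -1.69. The 3 ligands of the receptor Cxcr3 on activated T and NK cells were all called. Cxcl10 was at 26.7, 23.2 and 26.1 CPM in EO771 and 527, 689.8 and 553 CPM in MC38 (-4.54 ± 0.13, adjusted p = 1.6e-06). Cxcl9 differed by -1.91 ± 0.19, a call lost with all 15 tumors in one fit (-1.89), and Cxcl11 by -5.13 ± 0.37, with 41.7% of its exon bases overlapped by another gene. MC38 tumors exceeded all tumors of the other 3 models for Cxcl10, which reached 103 CPM there. Ccl2, a chemokine of monocytes, was at 37.1, 33.2 and 58.6 CPM in EO771 and 187, 213 and 201 CPM in MC38 (-2.23 ± 0.2), and the membrane-bound Cx3cl1 differed by -2.06 ± 0.2. Ccl8 was the exception, at 171, 196 and 219 CPM in EO771 and 80.8, 35.9 and 83.4 CPM in MC38 (1.55 ± 0.29, adjusted p = 0.0026). The count in the EO771 direction became 2 without MC38 tumor 1, and with all 15 tumors in one fit Ccl8 was not called (1.57).

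Checkpoint genes did not move as a block. Of 12 tested T cell checkpoint receptors 3 were called, all higher in MC38, and the median was -0.20, with a range of -0.56 to 0.18 on leaving out each tumor in turn, so that its sign depended on single libraries. It was above 0 without EO771 tumor 1, EO771 tumor 2 or MC38 tumor 1. Lag3 was at 3.96, 6.74 and 5.76 CPM in EO771 and 16.2, 12.3 and 18.3 CPM in MC38 (-1.52 ± 0.24), Cd96 differed by -2.61 ± 0.27, and Pdcd1, which encodes PD-1, by -1.06 ± 0.36 with overlapping groups. Pdcd1 was not called without EO771 tumor 1 (-1.05), EO771 tumor 3 (-0.79), MC38 tumor 1 (-0.87) or MC38 tumor 3 (-1.0). With all 15 tumors in one fit 1 receptor was called, and Lag3 was not (-1.5). Of 16 tested checkpoint ligands 4 were called in each direction. Beside Cd274 and Tnfsf9, MC38 tumors were higher in the galectin Lgals9 (-1.02 ± 0.11) and in Tnfrsf14 (-1.67 ± 0.26), which binds the receptor Btla. EO771 tumors were higher in 4 other ligands. The B7 protein Cd276 was at 109, 115 and 112 CPM in EO771 and 47.2, 41.2 and 51.6 CPM in MC38 (1.26 ± 0.09). Pvr, a ligand of Tigit, differed by 1.31 ± 0.13, the Icos ligand Icosl by 1.69 ± 0.13, and Cd80 by 1.21 ± 0.34. Cd80 was not called without EO771 tumor 3 (1.11), and Lgals9 fell short of the fold threshold without EO771 tumor 1 (-0.98), EO771 tumor 3 (-0.96) or MC38 tumor 2 (-0.91). Entpd1 and Havcr2 had log2 fold changes of 0.57 and -0.84 and were not called.

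The study's own panel of 17 immunosuppressive factors divided between the models. Of 15 tested genes 7 were called higher in MC38 and 3 higher in EO771, with a median of -1.0. Without MC38 tumor 1 the median was -0.58 and 4 genes were called higher in EO771. The panel is the study's own choice, so its direction is not independent evidence. The tryptophan-degrading enzymes Ido1 and Ido2 were at under 1 CPM in every EO771 tumor. Ido2 was at 0.385, 0.525 and 0.36 CPM in EO771 and 35.2, 41 and 28.9 CPM in MC38 (-6.36 ± 0.23, adjusted p = 2.2e-06), and Ido1 at 0, 0 and 0.36 CPM and 33.4, 24.4 and 22.6 CPM (-7.97 ± 0.59). All EO771 counts of Ido1 were in tumor 3. Without that tumor Ido1 was at least 265-fold higher in MC38 against 3 counts over the EO771 group, and without EO771 tumor 1 its log2 fold change was -7.17. In the other 3 models Ido1 reached at most 4.65 CPM and Ido2 7.15 CPM, so that MC38 lay above all of these tumors. The inducible nitric oxide synthase Nos2 was at 10.4, 6.83 and 8.46 CPM in EO771 and 168, 51.6 and 108 CPM in MC38 (-3.66 ± 0.43), and the arginase Arg1 at 14, 14.5 and 17.2 CPM and 209.7, 17.4 and 54 CPM (-2.63 ± 0.8), where MC38 tumor 1 held most of the signal. Without MC38 tumor 1 the log2 fold change of Arg1 was -1.21, and without EO771 tumors 1, 2 or 3 it was not called (-2.56, -2.58 and -2.71). Arg2 (0.47) and Il10 (-1.0) were not called and overlapped, and Il10 was called without MC38 tumor 2 (-1.27).

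The cyclooxygenases differed in opposite directions. Ptgs1, the constitutive enzyme, was at 115, 100.2 and 129 CPM in EO771 and 13.8, 8.05 and 11.1 CPM in MC38 (3.38 ± 0.2, adjusted p = 1.1e-05). Ptgs2, the inducible enzyme, was at 2.36, 1.23 and 2.16 CPM in EO771 and 137, 49 and 99.5 CPM in MC38 (-5.59 ± 0.46, adjusted p = 4.4e-05). No tumor of either model overlapped with the other for these genes. Of 17 tested prostaglandin pathway genes 2 were called higher in EO771, Ptgs1 and the prostaglandin D synthase Hpgds (1.18 ± 0.24), and 3 higher in MC38, Ptgs2, the phospholipase Pla2g4a (-1.67 ± 0.2) and the receptor Ptgfr (-1.9 ± 0.47). Ptges, the synthase for prostaglandin E2, was not called (0.52 ± 0.13). Among the remaining panel genes, Tgfb1 was at 408, 419.6 and 417 CPM in EO771 and 182, 200.4 and 204 CPM in MC38 (1.09 ± 0.07), and Tgfb2 differed by 1.12 ± 0.17. Tgfb1 fell short of the fold threshold on total counts without TMM factors (0.98). Ctnnb1 (0.58, with 15.1% of its exon bases overlapped by another gene), Vsir (0.46) and Pdcd1lg2 (1.17) were not called. Pdcd1lg2, which encodes PD-L2, was called higher in EO771 without MC38 tumor 1 (1.73), and Vtcn1 and Tnfsf18 had too few counts for testing.

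Of 10 tested kynurenine pathway genes 4 were called, all higher in MC38, and Ido1 and Ido2 were among them. The remaining calls were Ahr, the receptor that kynurenine activates, at 5.99, 7.27 and 9.36 CPM in EO771 and 33.3, 20.2 and 22.9 CPM in MC38 (-1.77 ± 0.24), and its target Cyp1b1 (-3.19 ± 0.74), which varied from 5.51 to 41.8 CPM among MC38 tumors and had a log2 fold change of -2.17 without MC38 tumor 3. The alternative first enzyme Tdo2 was at 3.08, 2.45 and 2.34 CPM in EO771 and 2.32, 2.85 and 2.82 CPM in MC38, and was not called.

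Macrophage genes overlapped in sum and differed in a few members. Of 25 tested genes 1 was called higher in EO771 and 3 higher in MC38, with a median of -0.30, or -0.10 without MC38 tumor 1 and -0.12 without MC38 tumor 3. C1qa, a complement gene of tissue macrophages, was at 535, 594 and 528 CPM in EO771 and 477, 449 and 737 CPM in MC38 (-0.01 ± 0.18), and Adgre1, which encodes F4/80, differed by 0.22 ± 0.18, both with overlapping groups. Mrc1, the mannose receptor CD206, was at 217, 229 and 324 CPM in EO771 and 99.97, 25.9 and 58.1 CPM in MC38 (2.06 ± 0.43, adjusted p = 0.0042). Ly6c2, an antigen of inflammatory monocytes that interferon also induces, was at 3.19, 2.36 and 2.7 CPM in EO771 and 26.5, 57 and 36.4 CPM in MC38 (-3.84 ± 0.32). Gpnmb differed by -2.02 ± 0.09, and Lyve1, which lymphatic vessels share, by -2.1 ± 0.38, or -2.72 without EO771 tumor 1, and was not called with all 15 tumors in one fit (-2.09). Neutrophil genes were scarce. Of 9 tested 1 was called higher in EO771 and 3 higher in MC38, and S100a8 was at 0.99, 1.14 and 2.52 CPM in EO771 and 2.27, 0.561 and 1.23 CPM in MC38.

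The matrix genes overlapped in their summed level and differed in single members. Of 30 fibrillar collagen and matrix genes 4 were called higher in EO771 and 6 higher in MC38, with a median of -0.32. On leaving out each tumor in turn the median ranged from -0.65 without MC38 tumor 2 to -0.07 without MC38 tumor 1 or MC38 tumor 3. Col1a1, the main chain of type I collagen, was at 1658, 2554 and 3499 CPM in EO771 and 6245, 1124 and 6317 CPM in MC38. MC38 tumors 1 and 3 were above and MC38 tumor 2 below all EO771 tumors, and the log2 fold change was -0.83 ± 0.59 (adjusted p = 0.25). Without MC38 tumor 2 Col1a1 was called higher in MC38 (-1.27), and the count of the list in that direction became 10. Col6a3 (1.68 ± 0.18), the fibulin Fbln2 (2.62 ± 0.54) and tenascin C, Tnc (1.59 ± 0.34), were higher in EO771. Fibronectin, Fn1, was at 363, 411 and 599 CPM in EO771 and 1242, 1210.3 and 1379.6 CPM in MC38 (-1.48 ± 0.18), and Col11a1 at 0.715, 0.876 and 0.99 CPM and 11.3, 9.48 and 25.9 CPM (-4.18 ± 0.47). Col14a1 (-3.04 ± 0.67, and -2.31 without MC38 tumor 3) and fibrillin, Fbn1 (-1.35 ± 0.33, with 20.1% of its exon bases overlapped by another gene), were also higher in MC38.

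Basement membrane genes included strong calls in both directions. Of 18 tested 7 were called higher in EO771 and 4 higher in MC38, with a median of 0.74. Col4a1, a chain of the basement membrane collagen, was at 1231, 1370.3 and 1370.5 CPM in EO771 and 461, 358 and 581 CPM in MC38 (1.5 ± 0.17, adjusted p = 0.00019). Col18a1 (2.02 ± 0.11) and the laminin chain Lama5 (1.68 ± 0.08) followed. Other chains of collagen IV went the opposite way. Col4a5 was at 0.275, 0.175 and 0.09 CPM in EO771 and 27.4, 31 and 25 CPM in MC38 (-7.1 ± 0.26), and Col4a6, which lies beside it, had no count in EO771 and 7.43, 11.1 and 7.15 CPM in MC38, at least 116-fold higher against 3 counts over the group. Lama3 was also higher in MC38 (-1.38 ± 0.29).

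Of 23 tested genes of matrix proteases and their inhibitors 8 were called higher in EO771 and 2 higher in MC38. The MC38 count became 4 without EO771 tumor 3 and 5 without MC38 tumor 2. Mmp13, a collagenase, was at 163, 167 and 227 CPM in EO771 and 54.4, 26 and 37.5 CPM in MC38 (2.24 ± 0.26), and Mmp10, a stromelysin, at 16.7, 35.8 and 35.2 CPM and 1.57, 0.816 and 0.361 CPM (4.92 ± 0.48). The plasminogen activator Plau differed by 1.9 ± 0.16. Without MC38 tumor 1 the log2 fold change of Mmp10 was 5.55. Mmp11 was the main exception, at 25.8, 30.9 and 52.5 CPM in EO771 and 89.9, 225 and 146 CPM in MC38 (-2.09 ± 0.38).

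Fibroblast markers leaned to MC38, with 10 of 19 tested called higher there and 1 in EO771. The 1 call in EO771 was 0 without EO771 tumor 1, EO771 tumor 3, MC38 tumor 2 or MC38 tumor 3, and 2 without EO771 tumor 2 or MC38 tumor 1. The called genes included S100a4 (-2.75 ± 0.26), which leukocytes and cancer cells also express and which overlaps another gene over 51.7% of its exon bases, and the collagen receptor Mrc2 (-1.72 ± 0.25). Clec3b, a gene of resting connective tissue fibroblasts, was at 2.03, 0.438 and 1.89 CPM in EO771 and 31.9, 10.04 and 39.4 CPM in MC38 (-4.16 ± 0.64), and within MC38 was, like the muscle genes, lowest in tumor 2 and highest in tumor 3. Fap, the protein used to sort the cancer-associated fibroblasts (CAFs) of the study, was at 0.935, 0.963 and 1.8 CPM in EO771 and 5.2, 1.53 and 8.09 CPM in MC38, with overlap (-2.01 ± 0.61). It was called higher in MC38, but not without EO771 tumor 1 (-1.82), EO771 tumor 2 (-1.86) or MC38 tumor 3 (-1.47). The receptors Pdgfra and Pdgfrb were not called (0.66 and 0.22), nor was smooth muscle actin, Acta2 (0.45 ± 0.51). Without MC38 tumor 3 Acta2 was called higher in EO771 (1.14). Of 14 contractile and pericyte genes 4 were called higher in EO771, or 7 without MC38 tumor 3, among them Cspg4, the pericyte proteoglycan NG2, at 43.8, 41.6 and 39.5 CPM in EO771 and 7.33, 8.72 and 9.9 CPM in MC38 (2.27 ± 0.13). Des, which muscle fibers also express, was the one higher in MC38, at 16.3, 14.8 and 14.8 CPM in EO771 and 66.9, 61.6 and 386 CPM in MC38, with a log2 fold change of -3.48 ± 0.75, or -2.07 without MC38 tumor 3, the tumor highest in muscle genes. Of 17 tested endothelial genes 2 were called higher in EO771 and 1 in MC38. The first count was 0 without EO771 tumor 3 and 1 without EO771 tumor 1, EO771 tumor 2 or MC38 tumor 1, and the second was 2 without MC38 tumor 1. Pecam1, which encodes CD31, was at 76.3, 90.1 and 87.7 CPM in EO771 and 56.5, 52.7 and 101 CPM in MC38.

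Sorted FAP+ CAFs of the same models, 2 libraries each, gave levels in a stromal fraction. They are given as the deposited RPKM without a test, and were normalized apart from the tumors. Cxcl10 was at 39 and 36.8 RPKM in EO771 CAFs and at 208 and 204 RPKM in MC38 CAFs. Isg15 was at 35.5 and 38.6 RPKM in EO771 CAFs and 492 and 331 RPKM in MC38 CAFs, and H2-K1 at 253 and 290 against 2329 and 1868 RPKM. For these genes each MC38 library lay above each EO771 library, as in whole tumors, and this held for Cd274 too (1.95 and 2.21 against 3.72 and 4.76 RPKM). Tgfb1 (101 and 111 against 33.8 and 28 RPKM) and Ptgs1 (29.8 and 25.1 against 6.84 and 6.13 RPKM) were higher in both EO771 libraries. Ptgs2 was at 17.3 and 21.4 RPKM in EO771 CAFs and 7.99 and 15.1 RPKM in MC38 CAFs, the reverse of the order in whole tumors. Col1a1 was at 3773 and 3362 RPKM in EO771 CAFs and 2771 and 467 RPKM in MC38 CAFs. Krt8, a keratin of epithelial cells, was at 492 and 495 RPKM in the EO771 CAF libraries and 0.274 and 0.241 RPKM in those of MC38, and Itgax was at 5.54 and 5.71 against 0.057 and 0.27 RPKM. The part of epithelial or myeloid RNA in the CAF values was not tested.

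**Figure D5:**
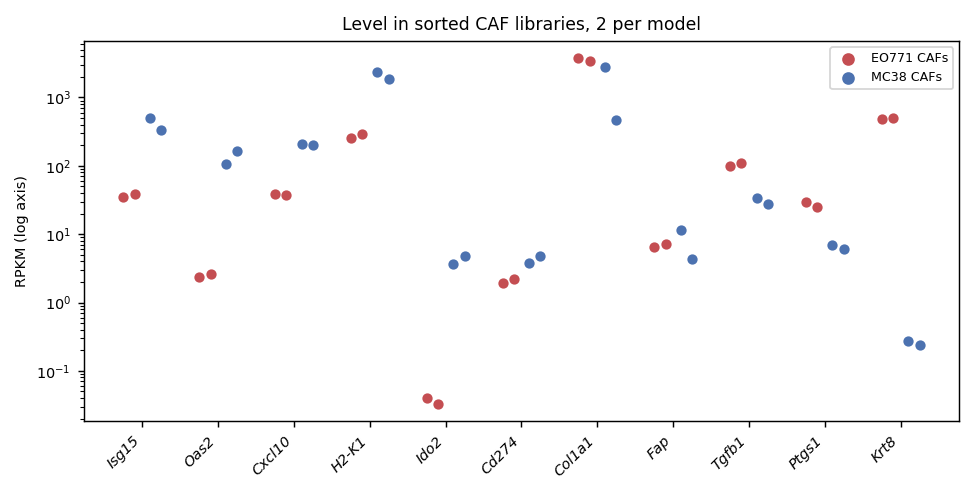
RPKM (log y axis) of 11 genes in the 2 sorted CAF libraries of EO771 (red) and of MC38 (blue). Interferon-related genes are higher in both MC38 libraries, Tgfb1, Ptgs1 and Krt8 in both EO771 libraries, and Fap and the MC38 levels of Col1a1 spread within the model.

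Of 10 tested lineage genes of mammary epithelium 5 were called higher in MC38 and 2 higher in EO771, the mammary carcinoma model. Of 14 tested keratin and epithelial junction genes 5 were called higher in EO771 and 1 higher in MC38, the latter 0 without EO771 tumor 1 or MC38 tumor 1 and 2 without EO771 tumor 3. The estrogen receptor Esr1 was at 2.2, 2.01 and 2.07 CPM in EO771 and 11.6, 7.7 and 9.1 CPM in MC38 (-2.17 ± 0.22), and Erbb3 differed by -1.43 ± 0.18. The basal keratin Krt14 was at 6.1, 10.3 and 11.2 CPM in EO771 and 0.707, 0.714 and 0.289 CPM in MC38 (3.95 ± 0.39). The intestinal cadherin Cdh17 was at 0.22, 0 and 0 CPM in EO771 and 4.95, 1.73 and 3.32 CPM in MC38 (-5.02 ± 0.8), where all EO771 counts were in tumor 1. Without that tumor Cdh17 was at least 25.1-fold higher in MC38 against 3 counts over the EO771 group. Of 9 tested intestinal lineage genes, Cdh17 was the 1 called higher in MC38, and 1 was called higher in EO771. The median log2 fold change of the list was 0.73, on the EO771 side, with a range of 0.34 to 0.69 on leaving out each tumor in turn. The 1 call in EO771 of the intestinal list became 2 without EO771 tumor 2 or MC38 tumor 2. The epithelial cadherin Cdh1 was at most 7.02 CPM in any tumor (0.8 ± 0.27, not called), and the mesenchymal cadherin Cdh2 was at 1.37, 1.31 and 2.07 CPM in EO771 and 21.5, 23.6 and 23 CPM in MC38 (-3.85 ± 0.19). Vim, the mesenchymal filament vimentin, was at 3288, 2961 and 3178 CPM in EO771 and 3068, 2764 and 2538 CPM in MC38. It was not called. Of both labelled lineages many genes had too few counts for testing, 8 of 18 mammary genes and 12 of 21 intestinal genes. Among regulators of mesenchymal transition, Zeb1 was higher in EO771 (1.78 ± 0.14) and Foxc2 higher in MC38, at 0.715, 0.613 and 0.36 CPM in EO771 and 40.1, 43.4 and 41.8 CPM in MC38 (-6.14 ± 0.19).

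Hox genes, which record position along the body axis, were on the MC38 side in 18 of 31 tested members, with none called higher in EO771 and a median of -1.82. Hoxa9 was at 1.21, 1.4 and 1.08 CPM in EO771 and 37.1, 39.1 and 32.9 CPM in MC38 (-4.88 ± 0.15), and Hoxb6 differed by -2.91 ± 0.17. Hoxd13, a gene of the most posterior position, had 2 counts over the 3 EO771 tumors and 19.4, 24 and 18 CPM in MC38, a ratio with a 95% counting interval of 115 to 3444. Hoxd8, in the same cluster, was at 25.5, 23.9 and 27.4 CPM in EO771 and 14.7, 14.3 and 16.8 CPM in MC38 (0.75 ± 0.11). Hoxd9 was at 37.9, 37.1 and 34.9 CPM and 22.5, 30.03 and 24.1 CPM (0.52 ± 0.12). Hoxd10 was at 21.2, 20.7 and 20.9 CPM and 12.4, 9.84 and 9.97 CPM (0.96 ± 0.13), and was called without MC38 tumor 1. With all 6 tumors these 3 genes lay above every MC38 tumor in EO771 but were under the fold threshold. They were named after their values were seen. Without MC38 tumor 1 Hoxd10 was called higher in EO771 (1.09), 1 of 2 Hox genes called in that direction.

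Of 25 tested Wnt pathway genes 10 were called higher in EO771 and 3 higher in MC38, or 5 without MC38 tumor 2, with a median of 0.78. Wnt7b was at 479, 525 and 528 CPM in EO771 and 26.5, 1.02 and 0.867 CPM in MC38, where tumor 1 held most of the signal. Its log2 fold change was 5.7 ± 1.06, and 9.06 without MC38 tumor 1. Wnt10b was at 42.2, 51.5 and 45.4 CPM in EO771 and 3.94, 3.52 and 3.9 CPM in MC38 (3.61 ± 0.13, adjusted p = 2e-06), and Wnt6 and the co-receptor Lrp6 differed by 2.25 ± 0.15 and 1.57 ± 0.11. The receptor Fzd7 was at 5.06, 5.17 and 7.11 CPM in EO771 and 58.7, 63.8 and 63 CPM in MC38 (-3.43 ± 0.14), and Lef1, a transcription factor at the end of the pathway, at 0.22, 0.263 and 0.63 CPM and 14.7, 24.1 and 19.4 CPM (-5.76 ± 0.37). The pathway target Axin2 was higher in EO771 (1.24 ± 0.26).

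Of 24 cell cycle genes 5 were called higher in MC38 and 2 higher in EO771, with a median of -0.57. Without regard to the test, 17 of the 24 were higher in every MC38 tumor than in every EO771 tumor (of all tested genes 35.1%) and 3 the reverse. Mki67 was at 73.6, 70.8 and 80.2 CPM in EO771 and 267, 205 and 189 CPM in MC38 (-1.56 ± 0.13), and E2f1 differed by -1.21 ± 0.1. The cyclins Ccne1 and Ccnd2 were higher in EO771 (1.69 ± 0.11 and 1.57 ± 0.1). Among drivers and suppressors, Myc was at 865, 715 and 785 CPM in EO771 and 200.2, 171 and 223 CPM in MC38 (1.99 ± 0.12), and Cdkn1a (p21) differed by 1.95 ± 0.11. Cdkn2a was at 0.88, 0.613 and 0.81 CPM in EO771 and 7.07, 7.65 and 7.22 CPM in MC38 (-3.22 ± 0.22). Its neighbor Cdkn2b was at 1.54, 1.58 and 1.53 CPM in EO771 and 9.7, 16.1 and 14 CPM in MC38 (-3.09 ± 0.24), so both were higher in MC38. Of 26 hypoxia and glycolysis genes 5 were called higher in EO771 and 2 higher in MC38. The glucose transporter Slc2a1 was at 899, 741 and 767 CPM in EO771 and 385, 286 and 314 CPM in MC38 (1.29 ± 0.13), whereas carbonic anhydrase Car9 was at 3.85, 2.54 and 2.07 CPM and 78.9, 38.4 and 52.5 CPM (-4.28 ± 0.34).

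The 12 genes with the largest fold in each direction, among called genes with a mean of at least 10 CPM and no overlap, are given next. On the EO771 side they were Nrip3, Krt8, Klk6, Phlda2, Wnt7b, Esx1, AU018091, Pthlh, Bmp7, Gm364, Elfn2 and Crabp1. Esx1, a homeobox gene of the placenta, was at 1677, 1645 and 1658 CPM in EO771 and 78.3, 11 and 6.14 CPM in MC38, while tumors of the remaining 3 models reached 10.8 CPM. Its log2 fold change was 5.69 ± 0.93, and 7.58 without MC38 tumor 1. Krt8 was at 1275, 1234 and 1301 CPM in EO771 and 57.5, 4.28 and 3.03 CPM in MC38, with log2 fold changes of 5.85 ± 1.07 and, without MC38 tumor 1, 8.42. Bmp7, a bone morphogenetic protein, changed from 5.62 to 7.97 and Pthlh, the parathyroid hormone-related protein, from 5.64 to 7.77 when MC38 tumor 1 was left out. Phlda2, an imprinted gene that restrains placental growth, was at 46.2, 46.4 and 40.1 CPM in EO771 and 1.97, 0.204 and 0.0722 CPM in MC38. Crabp1, a binding protein of retinoic acid, was at 62.8, 177 and 199 CPM in EO771, the widest spread of the 12. Without MC38 tumor 1 the log2 fold changes of AU018091, Gm364, Elfn2 and Crabp1 were 8.25, 6.56, 7.49 and 7.44, and that of Phlda2 was 8.15. Nrip3 and Klk6 then had 1 count each over MC38 tumors 2 and 3, with ratios of 432 and 667 and 95% counting intervals of 77.6 to 17080.2 and 119.8 to 26355. Nrip3 and Klk6 moved with MC38 tumor 2 as well, from 6.99 and 5.79 to 6.38 and 5.16 without it.

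On the MC38 side the 12 were Pvalb, Myl1, Gzmg, Alx1, Foxd1, Sis, Cyct, Myh4, Myot, Xirp2, Mybpc2 and Myh1. Of these, 7 are genes of skeletal muscle fibers, namely Pvalb, Myl1, Myh4, Myot, Xirp2, Mybpc2 and Myh1, and were highest in MC38 tumor 3 and lowest in MC38 tumor 2, as the muscle list was. Pvalb had no count in EO771 and 34.5, 7.8 and 106 CPM in MC38, at least 669.9-fold higher against 3 counts over the EO771 group. Xirp2 and Mybpc2 had 2 and 3 counts over the EO771 tumors, and 95% counting intervals of the ratio of 410 to 12226 and 484 to 6857. Myh4 and Myh1 had log2 fold changes of -10.42 ± 1.31 and -10.27 ± 1.34, or -9.22 and -9.26 without MC38 tumor 3. Without EO771 tumor 1 Myh4 had 2 counts over the EO771 tumors, and a ratio of 3148 with a 95% counting interval of 872 to 25998. Myl1 and Myot, with no count in EO771, were at least 562-fold and 147.5-fold higher in MC38. Of the 12, 4 further genes had no count in EO771 and are not muscle genes. The homeobox gene Alx1 was at 13.7, 15 and 13.4 CPM in MC38 (at least 190-fold higher), the forkhead gene Foxd1 at 10.9, 15.5 and 11.8 CPM (at least 173-fold), the intestinal enzyme Sis, sucrase-isomaltase, at 16.1, 13.8 and 8.23 CPM (at least 172-fold) and Cyct, the cytochrome c of testis, at 10.9, 14 and 11.7 CPM (at least 166-fold). Sis and Cyct reached at most 0.18 and 0.135 CPM in the other 3 models, whereas Alx1 reached 30.4 CPM there.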

How the data were processed

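RNA of whole tumors was read as deposited: per the labels, the authors aligned reads with STAR 2.5.0c to mm10 and counted them per RefSeq transcript with HOMER, and the deposited tumor values are estimated counts, which are whole or lie midway between whole numbers, without normalization. The CAF values are RPKM that the authors deposited, scaled to read depth and transcript length. The deposited tables hold 5 columns that match no sample given, which were not analysed here.

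Of 40458 transcripts 2 named no gene. Each of 24940 symbols was represented by its most counted transcript, by the mean of the 6 tumors, and 69.4% had 1 transcript. Counts were rounded to whole numbers and tested with edgeR 4.0.16 (R 4.3.3; limma 3.58.1) by TMM factors, filterByExpr and the quasi-likelihood F-test, without covariates, with Benjamini-Hochberg adjustment over all 14546 tested genes. The study used DESeq2, which was an alternative here (1.42.0). On simulated counts for 14388 genes, 27 of 67 genes with a true log2 change of 1 were called. This change lies at the fold threshold itself, so estimates under it could not be called. With a change of 2, 66 of 67 were called, with a change of 4, 66 of 66, and 2 unchanged genes were called. The simulated spread depended on expression level only and was shared by all 6 libraries, so it leaves out differences in spread between single genes and libraries. Total counts of 11497986 to 19125779 per tumor set the precision of low genes. Intervals and floors of 3 counts cover counting error only. Tables and figures used Python 3.11.15, pandas 2.3.3 and matplotlib 3.10.9.

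The members, the 44 gene lists and the named genes were chosen with earlier results of these data known. Named are Itgax, Cd274, the 17 genes of the study's immunosuppressive panel, for each list up to 4 called genes per direction with the smallest adjusted p and its defining members, and the 12 called genes per direction with the largest fold, a mean of at least 10 CPM in the higher group and no overlap. Lists were described by counts and medians, without a set test. The share of exon bases that overlap another gene is given where it reaches 15%, since the libraries keep no strand. Alternatives were DESeq2, total counts, upper-quartile factors, other filters and transcripts, rounding down, adjusted p alone, each library left out, a replicate block, and all 15 tumors in one fit. Some genes of the lists are not reported here by name. The promoter table is from RefSeq (GRCm38.p6).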

Additional observations from a re-analysis of the deposited data

How the results depend on the processing

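The counts of called genes, 1652 higher in EO771 and 2188 higher in MC38, stayed within 1.5 times under every alternative run but one: by adjusted p alone, with no fold threshold, they were 4403 and 4609. Leaving out each library in turn gave 1627 to 1797 genes higher in EO771 and 2109 to 2288 higher in MC38. With DESeq2 they were 1624 and 2081. Total counts without TMM factors moved the median log2 fold change of all genes by -0.105, and gave 1460 and 2446.

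The replicate block gave 1662 and 2157 genes. Deviations from the model mean had correlations of -0.127, 0.019 and 0.149 between tumors of the same number in both models. Between tumors of different number they ranged from -0.275 to 0.239. With 3 tumors per model these values cannot decide whether the numbers pair the samples. Among named genes the block ended the call of Pdcd1 and added that of Ncr1.

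No named gene changed direction as a call under the 16 alternatives run on single genes. Of 210 tested named genes, all 15 tumors in one fit ended 15 calls and changed no other: B2m, Ccl22, Ccl8, Cd3d, Cd3e, Cd3g, Cd4, Cd8b1, Cxcl9, Il2rb, Irf4, Lag3, Lyve1, Pdcd1 and Zap70. The cause was not tested. Leaving out 1 library ended 2 to 6 calls. Of the counts per list and direction, 8 moved by over 1.5 times with all 15 tumors in one fit, 2 on total counts, 1 with DESeq2 and 3 to 9 with a library left out.

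Depth limits the low genes: genes such as Xcr1, Ifng and Ncr1 rest on few counts per library. With 3 tumors per model, 1 cell line each and 1 library of MC38 that carries EO771-defining genes, differences between lines, tumors and tissue content cannot be told apart.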
